A study of Mus musculus with 4 samples.

Results

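Fc gamma receptors are the cell-surface receptors of immunoglobulin G, and 7 genes of that system were followed here in tumour-bearing mouse eyes: the receptor genes Fcgr1, Fcgr2b, Fcgr3 and Fcgr4, the signalling adaptor genes Fcer1g and Tyrobp, and Fcgrt, which encodes the neonatal Fc receptor. They are 7 of the 18193 genes with a probe set of their own, chosen by gene symbol, and all probe sets annotated to 1 of these symbols alone were taken, which gave 12 of the 45101 probe sets on the array. The samples were 2 eyes of splenectomized C57BL/6 mice and 2 eyes of intact C57BL/6 mice that had no surgery, with 1 array for each. Into the anterior chamber of the eye all 4 mice had been given 10000 E.G7-OVA cells that express luciferase, and the eyes were removed 15 days later. E.G7-OVA cells are lymphoma T cells of the mouse to which chicken ovalbumin was added as a model antigen. The RNA of a whole eye is therefore a mixture of tumour, infiltrating and ocular cells. Per the labels, males and females older than 7 weeks were used, without a sex for each mouse. The animals are not numbered in the labels, so the p-values measure the spread between these samples. The values are signals that the authors scaled on each array, in arbitrary units. In bulk RNA of this kind, fewer cells of a type and less RNA per cell cannot be told apart.

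Activating Fc gamma receptors on phagocytes and natural killer cells bind antibody-coated targets and start phagocytosis, killing and cytokine release. In the mouse the products of Fcgr1, Fcgr3 and Fcgr4 do so through the gamma chain encoded by Fcer1g, which carries an immunoreceptor tyrosine-based activation motif (ITAM), and Tyrobp encodes DAP12, a similar adaptor used by other receptors. Fcgr2b encodes the inhibitory receptor, which carries an inhibitory motif (ITIM) and restrains activating receptors and the B cell receptor by recruiting phosphatases. Fcgrt has a separate role: with beta-2 microglobulin (B2m) it carries immunoglobulin G through cells and protects it from breakdown. The myeloid factor PU.1 is known to act on genes of this group.

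Promoters of 6 of the 7 genes were found in the RefSeq table of build GRCm38.p6, each covering 250 bases before and 50 after the annotated start. The promoters of the activating receptors Fcgr1 (chr3:96293920-96294219, minus strand), Fcgr3 (chr1:171059354-171059653, minus strand) and Fcgr4 (chr1:171018676-171018975, plus strand) and of the inhibitory receptor Fcgr2b (chr1:170976022-170976321, minus strand) are shown because the signals of these genes separate the activating from the inhibitory receptors. Capitals mark matches, on either strand, to GAGGAA, the core of sites bound by PU.1.
Fcgr1: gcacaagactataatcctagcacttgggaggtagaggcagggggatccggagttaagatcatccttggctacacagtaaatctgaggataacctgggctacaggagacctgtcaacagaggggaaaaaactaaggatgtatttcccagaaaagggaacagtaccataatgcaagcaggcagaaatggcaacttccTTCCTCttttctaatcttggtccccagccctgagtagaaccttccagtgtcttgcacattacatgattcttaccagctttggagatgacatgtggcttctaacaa
Fcgr3: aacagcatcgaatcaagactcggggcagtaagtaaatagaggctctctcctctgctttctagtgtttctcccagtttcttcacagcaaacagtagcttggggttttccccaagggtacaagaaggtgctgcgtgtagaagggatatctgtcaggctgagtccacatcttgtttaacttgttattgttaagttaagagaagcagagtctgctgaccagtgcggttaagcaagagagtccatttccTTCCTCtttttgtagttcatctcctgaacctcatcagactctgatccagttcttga
Fcgr4: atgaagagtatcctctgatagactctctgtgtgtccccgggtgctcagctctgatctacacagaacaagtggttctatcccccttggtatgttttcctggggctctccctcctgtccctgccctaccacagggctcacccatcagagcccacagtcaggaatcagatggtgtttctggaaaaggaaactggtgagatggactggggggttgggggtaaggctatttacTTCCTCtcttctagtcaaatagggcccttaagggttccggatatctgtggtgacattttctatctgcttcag
Fcgr2b: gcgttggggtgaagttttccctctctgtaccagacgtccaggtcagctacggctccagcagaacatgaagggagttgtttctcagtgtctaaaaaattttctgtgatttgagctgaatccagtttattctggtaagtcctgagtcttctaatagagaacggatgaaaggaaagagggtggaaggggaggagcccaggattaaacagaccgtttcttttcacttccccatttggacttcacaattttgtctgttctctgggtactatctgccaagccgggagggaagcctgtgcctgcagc
Each of the 3 activating receptor promoters held 1 match to GAGGAA, on the opposite strand, where it reads TTCCTC. It began 55 bases before the start in Fcgr1, 6 in Fcgr3 and 22 in Fcgr4. The second annotated start of Fcgr3 held the same match 15 bases upstream. The promoters of Fcgr2b, Fcer1g and Fcgrt did not hold it in this window. Of all 32851 promoters of this length, 28.3% held GAGGAA, and a match is a description of these letters only.

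Of the 12 probe sets, 11 were called Present on all 4 arrays and were tested, and 1 of Fcgr2b (1447622_at) was called Absent on all 4 arrays, at signals of 0.6 and 0.2 in splenectomized and 0.4 and 0.2 in intact mice. Across the arrays 53.2% to 58.6% of all probe sets were called Present. The test was limma over all 26285 probe sets called Present on at least 2 arrays, with Benjamini-Hochberg adjustment over all of them.

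The activating receptors had higher signals in splenectomized mice. Fcgr4, whose receptor binds immunoglobulin G with intermediate affinity and is found on monocytes, macrophages and neutrophils, had signals of 1189.5 and 1200.2 in splenectomized and 538.8 and 575.9 in intact mice. Both splenectomized arrays lay above both intact arrays, and the pair within each group lay close together. The fold was 2.14, with a 95% interval of 1.70 to 2.70 (limma, adjusted p = 0.171). Fcgr1 encodes the high-affinity receptor of monocytes and macrophages. Its probe set 1417876_at had signals of 542.5 and 562.9 in splenectomized and 271.6 and 266.2 in intact mice, with no overlap. That is 2.06-fold higher, with an interval of 1.61 to 2.62 (limma, adjusted p = 0.173). Its dimmer probe set 1436625_at had signals of 164.7 and 134.6 in splenectomized and 81.4 and 86.9 in intact mice, also without overlap and 1.77-fold higher (limma, adjusted p = 0.419). Both probe sets of Fcgr1 were thus higher in splenectomized mice. Fcgr3, the low-affinity activating receptor of macrophages, neutrophils and natural killer cells, had signals of 1443.8 and 1474.0 in splenectomized and 860.7 and 864.8 in intact mice. The groups did not overlap, and the fold of 1.69 was the smallest of the 3 activating receptors, with an interval of 1.35 to 2.11 that overlaps those of Fcgr1 and Fcgr4 (limma, adjusted p = 0.22).

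The 2 adaptor genes were higher by similar amounts. Fcer1g had signals of 2921.7 and 2907.2 in splenectomized and 1691.9 and 1571.4 in intact mice, with no overlap. That is 1.79-fold higher, with an interval of 1.42 to 2.25 (limma, adjusted p = 0.203). Tyrobp had signals of 2821.1 and 2885.6 in splenectomized and 1677.4 and 1380.4 in intact mice, without overlap, the intact arrays lying farther apart than the splenectomized ones. That is 1.88-fold higher, with an interval of 1.44 to 2.45 (limma, adjusted p = 0.22). The log2 ratio of Tyrobp to Fcer1g, taken within each array, differed by 0.07 between the groups, with overlapping arrays.

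**Figure D1:**
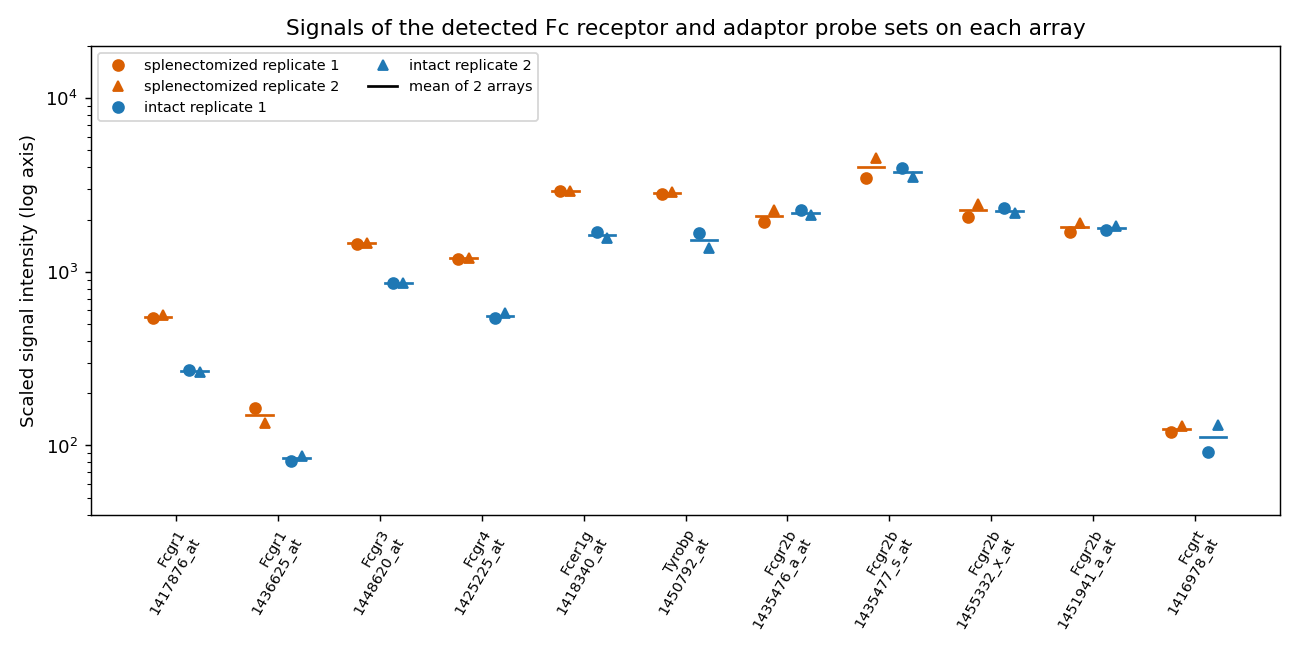
Scaled signal of each detected probe set (log axis) on the 4 arrays, with splenectomized mice in orange at the left and intact mice in blue at the right of each position, circles for replicate 1, triangles for replicate 2 and bars for the mean of 2 arrays. Both orange points lie above both blue points for Fcgr1, Fcgr3, Fcgr4, Fcer1g and Tyrobp, and the colours overlap for the 4 probe sets of Fcgr2b and for Fcgrt. Signals of different probe sets cannot be compared with each other.

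The inhibitory receptor Fcgr2b had overlapping signals in the groups. Its brightest probe set, 1435477_s_at, had signals of 3452.2 and 4533.4 in splenectomized and 3956.7 and 3537.6 in intact mice, with the splenectomized arrays the lowest and the highest of the 4. The fold was 1.06, with an interval of 0.769 to 1.45 (limma, adjusted p = 0.9). The suffix _s_at marks probes shared by several transcripts and _x_at probes that may bind unrelated ones, whereas _a_at marks transcripts of 1 gene. Of the probe sets with the last suffix, 1435476_a_at had signals of 1925.6 and 2279.2 in splenectomized and 2261.5 and 2121.6 in intact mice, a log2 fold change of -0.06 with an interval of -0.44 to 0.31. The other, 1451941_a_at, had signals of 1698.1 and 1915.0 in splenectomized and 1738.3 and 1834.8 in intact mice, a log2 fold change of 0.01 with an interval of -0.34 to 0.37. The groups overlapped in both, and the upper ends of both intervals lie below the log2 fold change of each activating receptor. Probe set 1455332_x_at gave a log2 fold change of 0.00, with an interval of -0.37 to 0.38. All 4 detected Fcgr2b probe sets were lowest on the array of splenectomized replicate 1 and highest on that of splenectomized replicate 2, and 3 of them were designed from the same source sequence, so they are repeated readings of 1 transcript and not replicates. The sign of the Fcgr2b change was not stable: it turned in 3 of the 4 probe sets without splenectomized replicate 2 and in the other one without splenectomized replicate 1. The direction of Fcgr2b is therefore not given.

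Fcgrt, the neonatal Fc receptor gene, had signals of 119.6 and 130.1 in splenectomized and 91.5 and 131.0 in intact mice. The intact arrays were the lowest and the highest of the 4, and the fold of 1.14 had an interval of 0.748 to 1.73 (limma, adjusted p = 0.826). The log2 fold change of Fcgrt was 0.19 with all arrays and -0.07 without intact replicate 1. That array was also low in markers of eye tissue, among them the photoreceptor gene Sag and the lens crystallin genes Crygs and Cryaa. The 5 tested eye genes overlapped between the groups and had summed signals of 16635 and 13781 in splenectomized and 6287 and 17093 in intact mice, and the part of tissue content in the Fcgrt values was not tested. B2m, whose product pairs with Fcgrt, had signals of 8640.8 and 7912.5 in splenectomized and 7352.2 and 6627.6 in intact mice, without overlap (limma, adjusted p = 0.708).

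Taken as a group, 6 of the 11 tested probe sets were higher in splenectomized mice with no overlap between the groups, against 20.0% of all tested probe sets, and 0 were lower without overlap, against 19.7%. These 6 come from 5 genes. The same 6 had an unadjusted p under 0.05 in limma and were higher, against 5.49% of all probe sets, while 0 of the 11 and 0% of all probe sets passed at an adjusted p under 0.05 (smallest adjusted p of all = 0.134). Because the genes were chosen with earlier results of these data known, these counts describe them and are no test of the group. Calls depended on the intact arrays: without intact replicate 1, 4 of the 11 passed, and without intact replicate 2, 6 of the 11. Those fits leave 1 intact array and take their spread from the splenectomized pair alone, and they called 329 and 3574 of all 26285 probe sets.

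**Figure D2:**
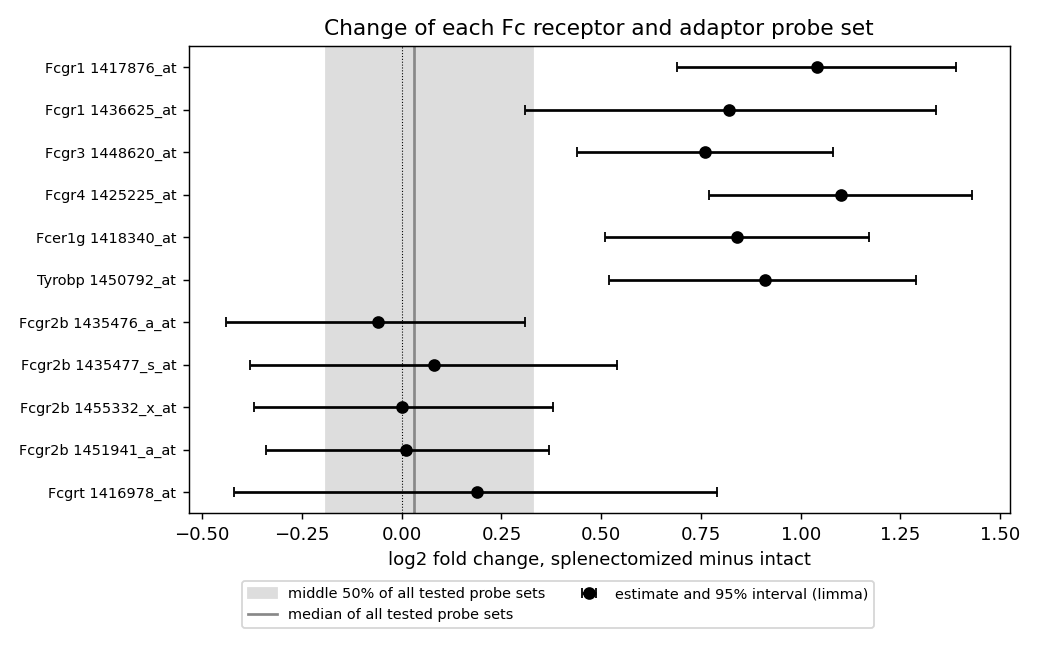
Log2 fold change (splenectomized minus intact) of each tested probe set with its 95% interval from limma, beside the median (line) and the middle 50% (grey band) of all 26285 tested probe sets. The estimates of the activating receptors and adaptors run from 0.76 to 1.10, to the right of the grey band, and those of Fcgr2b and Fcgrt run from -0.06 to 0.19, within it.

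The contrast of activating with inhibitory receptors was read as the change of their ratio within each array, which leaves out any scaling of a whole array. The mean log2 signal of Fcgr1, Fcgr3 and Fcgr4 minus that of Fcgr2b, centred on the mean of the 4 arrays, was 0.62 and 0.26 in splenectomized and -0.54 and -0.35 in intact mice. Both splenectomized arrays were above both intact arrays. The difference of 0.89 is a 1.85-fold higher ratio of activating to inhibitory transcripts in splenectomized mice, with an SD of 0.26 between the splenectomized and 0.13 between the intact arrays (n = 2 each). An exact two-sided permutation test over the 4 arrays gave p = 0.333, which is the smallest it can give with 6 assignments. Singly, the ratio to Fcgr2b was 1.94-fold higher for Fcgr1, 1.60-fold for Fcgr3, 2.03-fold for Fcgr4, 1.69-fold for Fcer1g and 1.77-fold for Tyrobp, each without overlap. These single ratios share the same Fcgr2b values and are not separate results. The share of all genes without overlap in such a ratio was not counted. With each of the other 3 detected Fcgr2b probe sets in its place the difference was 0.95 to 1.03, and with the other Fcgr1 probe set 0.81.

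Macrophage markers were higher as well. Of 10 listed and tested, 9 were higher in splenectomized mice without overlap, against 21.7% of all 13148 genes tested, with a median log2 fold change of 0.90, against 0.05 for all genes, and 0 passed at an adjusted p under 0.05 in limma. Their summed signal was 20506 and 21626 in splenectomized and 13097 and 11555 in intact mice. Mpeg1, which encodes a pore-forming phagocyte protein, was 2.12-fold higher, the lysosomal protein gene Cd68 2.05-fold and the complement gene C1qb 2.14-fold. The mean log2 signal of the 10 markers differed by 0.84 between the groups, and each gene was set against it within the arrays. Fcer1g differed by 0.00 relative to these markers and Tyrobp by 0.07, with overlapping arrays in both. Fcgr3 differed by -0.08, Fcgr1 by 0.20 and Fcgr4 by 0.26, small steps in which the groups did not overlap. Fcgr2b differed by -0.76, at -0.56 and -0.19 in splenectomized and 0.47 and 0.29 in intact mice, and Fcgrt by -0.65, both without overlap. With an array left out, Fcgr1, Fcgr3 and Fcgr4 kept their signs, at 0.18 to 0.23, -0.09 to -0.07 and 0.22 to 0.30, while Tyrobp ran from -0.08 to 0.22 and Fcer1g from -0.06 to 0.06. Fcgr2b stayed at -0.94 to -0.57 and Fcgrt at -0.90 to -0.40, the last without intact replicate 2, and both were thus lower relative to the macrophage markers in splenectomized mice. These ratios were not tested beyond the permutation limit given above, and the share of all genes without overlap in them was not counted.

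**Figure D3:**
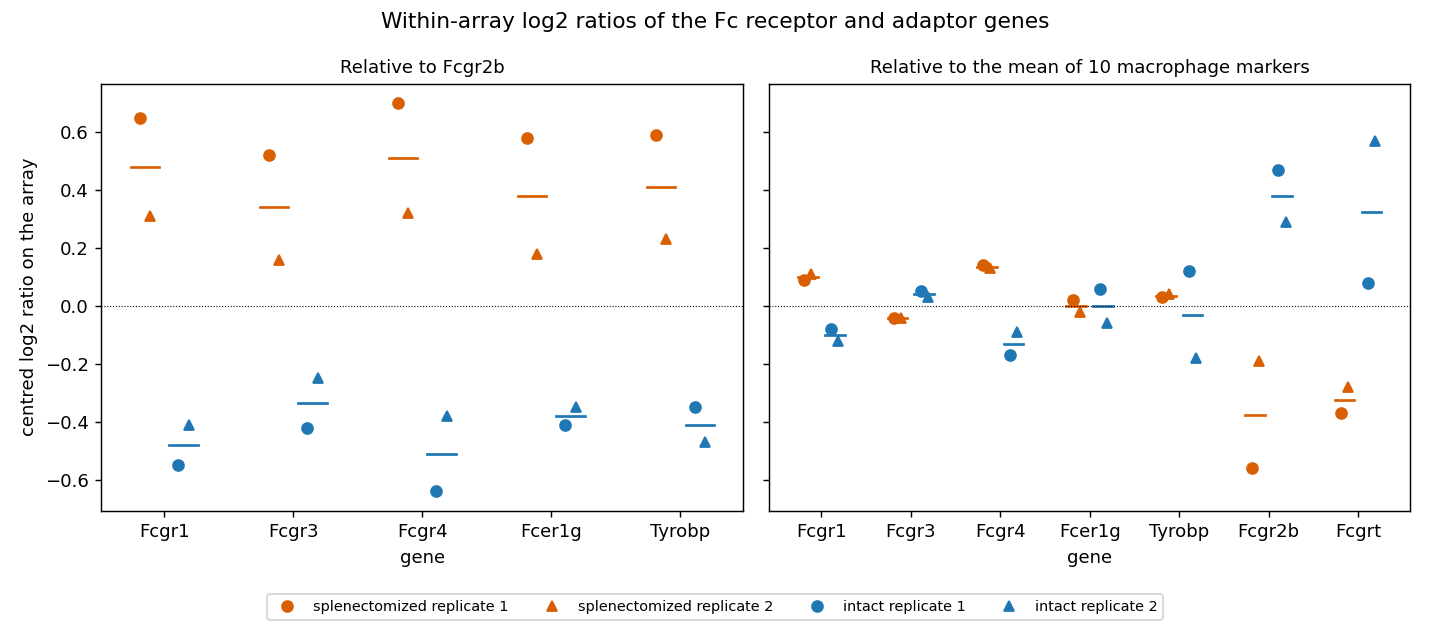
Log2 ratio within each array, centred on the mean of the 4 arrays, of each gene to Fcgr2b (left) and to the mean of 10 macrophage markers (right), with splenectomized mice in orange at the left and intact mice in blue at the right of each position, circles for replicate 1, triangles for replicate 2 and bars for the mean. All orange points are above all blue points in the left panel. In the right panel Fcgr2b and Fcgrt are lower in splenectomized mice, as a gene with no change would be.

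Among markers of other cell types, those of natural killer cells and neutrophils were higher. The other lists were mixed, overlapped between the groups or were near background. Natural killer markers, of cells that use Fcgr3 and in the mouse lack the inhibitory receptor, were tested for 5 genes, of which Eomes and Ncr1 passed the detection filter through the splenectomized arrays alone. The other 3 were all higher without overlap, against 21.3% of the 12903 genes called Present in both groups, and Klrd1 had signals of 441.8 and 411.9 in splenectomized and 124.8 and 118.1 in intact mice. Eomes, a transcription factor gene, was called Present on both splenectomized arrays, at signals of 54.4 and 38.9, and Absent on both intact ones, at 2.2 and 14.3 (limma, adjusted p = 0.512), so no fold is given. Ncr1 was called in the same way, at 16.1 and 17.8 in splenectomized and 2.5 and 8.3 in intact mice. Whether natural killer cells made the RNA of these listed genes was not tested. Klrk1, an activating receptor gene, was 2.69-fold higher. Neutrophil markers were higher without overlap in 5 of 5 tested genes, against 21.7% of all genes, and their median log2 fold change was 0.78, against 0.05 for all genes. Of these, S100a8 and S100a9, a calcium-binding pair, were 2.26-fold and 1.72-fold higher, and Mmp8, a collagenase, was 2.04-fold higher. The summed neutrophil signal was 9888 and 9680 in splenectomized and 6753 and 3671 in intact mice. Their part in the values of Fcgr3, Fcgr4 and the adaptors was not tested. B cells use Fcgr2b as their Fc gamma receptor, and their markers were near background. Cd79a and Pax5 were called Absent on all 4 arrays. The 2 tested markers, Ms4a1 and Cd79b, were higher in splenectomized mice without overlap, against 21.7% of all genes. Both were called Absent on intact replicate 1. Their summed signals were 56 and 40 in splenectomized and 23 and 20 in intact mice. Mast cell markers overlapped between the groups in 4 of 4 tested genes, among them Cma1, Kit and Fcer1a. Of all genes, 21.7% were higher and 19.7% lower without overlap, and the rest overlapped. The T cell genes Cd3e, Cd3g, Cd247 and Cd8a, 3 of which encode ITAM chains that the injected lymphoma can also make, had summed signals of 1985 and 2314 in splenectomized and 2586 and 2057 in intact mice. Cd3e was lower without overlap (fold 0.80), against 19.7% of all genes. Its signals were 280.6 and 280.3 in splenectomized and 435.0 and 282.5 in intact mice (limma, adjusted p = 0.74). The Cd3e groups were thus parted only by 280.6 against 282.5, and Cd3g and Cd247 overlapped. Cd8a was called Present on both splenectomized arrays, at signals of 95.8 and 104.3, and Absent on both intact ones, at 43.5 and 34.8 (limma, adjusted p = 0.25). Dendritic markers gave 2 of 3 tested genes higher without overlap, against 21.7% of all genes, Ccr7 with a fold of 1.83 and Flt3 with 1.32, while Cd209a overlapped. Endothelial cells, in which Fcgrt is known to work, had 1 of 6 markers higher without overlap, Tie1, a share near the 21.7% of all genes. Tek and Emcn overlapped, and the median log2 fold change was 0.10.

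Receptors that signal through the same adaptors were also higher. Of 20 listed genes 15 were tested, and 3 of these, Trem2, Siglech and Ncr1, passed the detection filter through the splenectomized arrays alone. The other 12 were all higher in splenectomized mice without overlap, against 21.3% of the genes called Present in both groups, and their median log2 fold change was 0.86, against 0.04. An unadjusted p under 0.05 with a higher signal was reached by 9 of the 12, against 6.92% of those genes, and 0 of the 15 passed at an adjusted p under 0.05 (limma). Itgb2, the beta chain of leukocyte integrins that work with these adaptors, had signals of 1734.5 and 1702.5 in splenectomized and 961.3 and 777.0 in intact mice, 1.99-fold higher (limma, adjusted p = 0.204). Sirpb1a, a Tyrobp-coupled receptor gene, had signals of 360.7 and 338.6 in splenectomized and 192.8 and 173.9 in intact mice, and Klra8, an activating receptor gene of natural killer cells, 80.6 and 61.7 in splenectomized and 26.0 and 24.8 in intact mice. In both the groups lay clearly apart. The Klra8 probe set carries the suffix _x_at and its family is large, so other members may add to its signal. Of the 3 genes called Absent on both intact arrays, Trem2, a receptor gene of macrophages and microglia, had signals of 106.5 and 109.7 in splenectomized and 45.1 and 58.7 in intact mice (limma, adjusted p = 0.358). Siglech and Ncr1 had adjusted p-values of 0.725 and 0.588 in limma. No fold is given for these genes, whose intact level was not detected.

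The intracellular steps below the ITAM gave a mixed picture. Of 17 tested kinases and effectors, 10 were higher and 1 was lower without overlap, against 21.7% and 19.7% of all genes, and the median log2 fold change was 0.24. Syk, the kinase that binds phosphorylated ITAMs, had signals of 171.6 and 185.3 in splenectomized and 118.5 and 94.9 in intact mice, 1.68-fold higher (limma, adjusted p = 0.47). Pik3ap1, an adaptor for phosphoinositide 3-kinase, was 1.81-fold and the Src-family kinase gene Fyn 1.41-fold higher. Other adaptors with an ITAM or a related motif were mixed as well. Of 6 tested, Cd79b was higher and Cd3e lower without overlap, shares near the 21.7% and 19.7% of all genes, Cd247 was among the 4 that overlapped, and the median was -0.03.

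Several other inhibitory receptor genes had higher signals in splenectomized mice. Of 13 tested ITIM phosphatases and inhibitory receptors, 8 were higher and 2 were lower without overlap, against 21.7% and 19.7% of all genes, and 0 passed at an adjusted p under 0.05 in limma. The list's median log2 fold change was 0.60. Cd300lf, an inhibitory receptor gene of myeloid cells, had signals of 309.5 and 349.7 in splenectomized and 182.0 and 161.0 in intact mice, 1.92-fold higher (limma, adjusted p = 0.246). Pirb, another myeloid inhibitory receptor gene, had signals of 385.3 and 340.7 in splenectomized and 200.4 and 199.4 in intact mice, and Cd300a was 1.69-fold higher. Neither overlapped between the groups. The 2 genes lower without overlap were the phosphatase genes Ptpn6 and Ptpn11, named because they are the whole of that count. Ptpn6 had signals of 1498.4 and 1918.5 in splenectomized and 2192.8 and 2187.1 in intact mice, and Ptpn11 774.5 and 825.9 in splenectomized and 914.9 and 922.1 in intact mice (limma, adjusted p = 0.649 and 0.725). Another phosphatase gene of the list, Inpp5d, went the other way and was higher without overlap. It had signals of 376.5 and 360.4 in splenectomized and 354.5 and 314.5 in intact mice (limma, adjusted p = 0.802). The Inpp5d groups were parted only by 360.4 against 354.5.

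**Figure D4:**
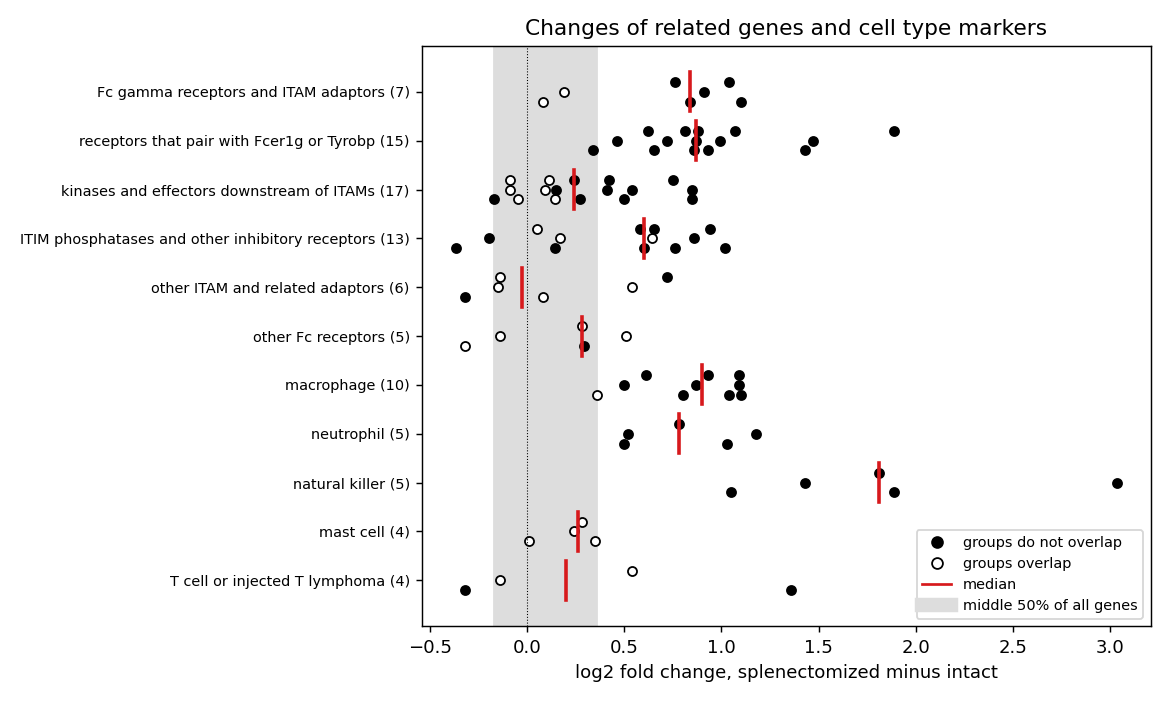
Log2 fold change (splenectomized minus intact) of each tested gene of the related lists and marker lists, with the number of tested genes in brackets, filled points where the groups do not overlap, open points where they do, red bars for medians and a grey band for the middle 50% of all 13148 genes. Points, medians and bracketed numbers include genes that passed the detection filter through the splenectomized arrays alone. They are Trem2, Siglech and Ncr1 among the pairing receptors, Eomes and Ncr1 among natural killer markers, and Cd8a among T cell genes. That filter favours a place to the right of 0, so their positions are not read. The other 12 receptors that pair with the adaptors are filled and to the right of 0. In the row of Fc gamma receptors and adaptors the 2 open points are Fcgr2b and Fcgrt.

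Most Fc receptors other than the genes followed here were not tested or overlapped. Of 12 listed, 5 were tested and 1 of the 5 was higher without overlap, a share near the 21.7% of all genes. It was Trim21, a cytosolic antibody receptor gene, with signals of 391.2 and 365.2 in splenectomized and 327.7 and 293.3 in intact mice. Pigr, the transporter of polymeric antibody, and Fcrls, a receptor-like gene, overlapped. Immunoglobulin genes, the source of the ligands, could be read for 3 chains. Igha encodes the heavy chain of immunoglobulin A, which Fc gamma receptors do not bind. Its signals were 589.7 and 494.8 in splenectomized and 61.7 and 35.0 in intact mice (limma, adjusted p = 0.151). On intact replicate 2 Igha was called Absent. The joining chain gene Jchain had signals of 167.8 and 100.9 in splenectomized and 16.6 and 28.3 in intact mice (limma, adjusted p = 0.202). Ighm, the heavy chain of immunoglobulin M, had signals of 407.5 and 545.4 in splenectomized and 1145.7 and 435.0 in intact mice, with overlap. Of the heavy chains of immunoglobulin G, Ighg3 was called Present on 1 of 4 arrays, and Ighg1, Ighg2b and Ighg2c were not analysed here.

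Neighbouring genes on the chromosome were also read. In the order of build GRCm38.p6, Fcgr2b, Fcgr4, Fcgr3 and Fcer1g lie on chromosome 1 within a run of 11 protein-coding genes, of which 7 are not among the genes followed here and 4 of those were tested. Sdhc, a subunit gene of succinate dehydrogenase, had signals of 571.9 and 579.2 in splenectomized and 735.3 and 592.2 in intact mice. Apoa2, an apolipoprotein gene, had signals of 21.3 and 20.9 in splenectomized and 57.1 and 41.5 in intact mice. Both Sdhc and Apoa2 were lower without overlap, against 19.7% of all genes (limma, adjusted p = 0.76 and 0.457). The Sdhc groups were parted only by 579.2 against 592.2. Pcp4l1 and Tomm40l overlapped. These 4 were named because they are all the tested neighbours.

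The profile most like that of Fcer1g was sought among the 13148 genes by the Euclidean distance between log2 signals over the 4 arrays, each gene centred on its mean. The nearest genes were Kcne3 at 0.047, H2-Aa at 0.049, Msr1 at 0.051, BC028528 at 0.054 and Cpxm1 at 0.059. H2-Aa encodes a chain of MHC class II and had signals of 5625.4 and 5526.9 in splenectomized and 3194.6 and 3101.1 in intact mice, and Msr1, a macrophage scavenger receptor gene, had 315.6 and 305.1 in splenectomized and 177.8 and 171.8 in intact mice. Fcgr3 lay at 0.116 from Fcer1g, with 20 genes nearer, and Tyrobp at 0.144, with 46 nearer. Fcgr1 lay at 0.213 and Fcgr4 at 0.300, whereas Fcgr2b lay at 0.809, with 3958 genes nearer. Nearest to Fcgr2b were Socs1 at 0.024, a suppressor gene of cytokine signalling, then Flad1, Dnajc18, Agpat1 and Prorsd1 at up to 0.063. Nearest to Fcgrt were Zyg11b at 0.024, BC064078, Jmjd1c, Pglyrp1 and Sirt2 at up to 0.037. With 4 arrays, such nearness is a description of these samples.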

How the data were processed

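RNA of whole tumour-bearing eyes was measured on Affymetrix mouse arrays, 2 from splenectomized and 2 from intact mice. Per the submitters' processing notes, the deposited signal intensities and detection calls came from GCOS 1.4 and MAS5. The sources used here give no scaling target, and every array has a mean of 150.0 after trimming. Names came from GEO's platform annotation, where 34945 had 1 symbol, and 34741 of these matched a RefSeq table by Entrez identifier. The deposited signals were turned into log2 values after 0 was raised to 0.1. Probe sets called Present on at least 2 arrays entered limma 3.58.1 (R 4.3.3, intensity trend, no covariate), with 2 residual degrees of freedom and Benjamini-Hochberg adjustment. The fit was tested on simulated data. A gene outside the receptor and adaptor group was represented by its detected probe set of highest mean log2 signal. In each list the 3 genes of smallest unadjusted p are named, with others named where a count, a direction or a detection call turns on them. For each of Fcer1g, Fcgr2b and Fcgrt the 5 nearest profiles are named. No fold is given for a gene called Absent on both arrays of a group, and such genes were left out of the counts of their lists. The genes and lists were chosen with earlier results of these data known. Alternatives were other filters, scalings, a pseudocount of 16, a floor of 6.1, gene summaries, no trend, a replicate block and leaving out each array. The number of arrays limits the precision. Plots were made with Python 3.11.15 and matplotlib 3.10.9.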

Additional observations from a re-analysis of the deposited data

How the results depend on the processing

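Fcgr1, Fcgr3, Fcgr4, Fcer1g and Tyrobp kept a higher signal in splenectomized mice under all alternatives run, with log2 fold changes of 0.93 to 1.07 (Fcgr1, 1417876_at), 0.71 to 0.79 (Fcgr3), 1.05 to 1.15 (Fcgr4), 0.78 to 0.89 (Fcer1g) and 0.77 to 1.05 (Tyrobp). The activating minus inhibitory difference stayed at 0.70 to 1.07 when an array was left out and was 0.89 with the replicate block. With the replicate block 0 of the 11 probe sets passed, as without it, and 1056 of all probe sets had an unadjusted p under 0.05, against 2120. The replicate numbers come from the sample titles, which state no pairing between the groups. Deviations of same-numbered arrays from their group means correlated at -0.457 over 21447 probe sets. With 2 arrays in each group, differently numbered arrays therefore deviated alike, and the cause of this was not tested. Relative to the macrophage markers, Fcgr1 was at 0.09 with the mean of its probe sets, against 0.20, and Fcgr4 at 0.30 with quantile normalization, against 0.26. Leaving out an array gave 6 to 10 probe sets higher without overlap, 10 only without splenectomized replicate 1. The splenectomized array then left was the one on which all 4 detected Fcgr2b probe sets were highest. With 1 array in a group a lack of overlap is easier to reach, and the share of all probe sets was not counted. These counts are therefore no stronger result than that of the full data. Signs turned for Fcgrt (-0.07 to 0.45 when an array was left out, lowest without intact replicate 1) and for Fcgr2b. With median centring 1451941_a_at was at -0.04 and 1455332_x_at at -0.05. When an array was left out, 1435476_a_at ranged from -0.19 to 0.06, 1435477_s_at from -0.12 to 0.28 (0.00 without intact replicate 2), 1451941_a_at from -0.07 to 0.10 (-0.02 without intact replicate 1) and 1455332_x_at from -0.12 to 0.12. The cause of these turns was not tested. The scalings moved the median of all probe sets by at most 0.06 on the log2 scale. The differences with other Fcgr2b or Fcgr1 probe sets were chosen after seeing the data.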
